A study of Ovis aries and Mus musculus with 20 samples.

Results

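The clustered protocadherins are the genes of the alpha, beta and gamma protocadherin clusters, which lie side by side on mouse chromosome 18. Members were taken by symbol, as every annotated gene that begins with *Pcdha*, *Pcdhb* or *Pcdhg* there. This gave 59 of the 20621 protein-coding genes on the mouse autosomes with a compartment value, and the annotation counts all 59 as protein-coding. There were 15 alpha genes, 22 beta genes and 22 gamma genes, and 1 of the alpha genes, *Pcdha4b*, is annotated as a readthrough transcript that starts among the others. All 59 are transcribed from the plus strand. On GRCm39 they span chr18:37063237-37975014, a stretch of 912 kb.

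The data came from a study of how the genome folds in fat of several mammals, read by Hi-C, a method that ligates and sequences pairs of DNA fragments that lie close together in the nucleus. The mouse samples analysed here were 2 pools of inguinal white adipose tissue (iWAT), a subcutaneous fat depot, from adult Kunming mice at 32 weeks of age. The methods name no treatment other than a fast of the study's animals before they were killed. Both pools belong to 1 group, and each holds tissue of several animals, so differences between single mice are averaged out. The floating layer that contains the adipocytes was taken for nuclei, other cells of the depot were not sorted away, and the DNA was cut with MboI. A value is therefore an average over all nuclei in a pool, and a change in a share of the cells cannot be told apart from a change in every cell. Kunming is an outbred stock and its reads were aligned to the reference of another strain.

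The measurement is the A-B index, a signed score for each bin of 20 kb. A bin with an index above 0 contacted the A compartment, the open and gene-rich part of its chromosome, more than the B compartment, the compact and mostly silent part, and a bin below 0 did the reverse. The score has no fixed range. Values in these files seem large for a plain difference of contact ratios and may have been rescaled, and it is read here by sign and by rank against other bins and genes. The depth behind each bin is unknown, so no counting interval can be given. The spread is given as the SD of the 2 pools. No test was made, since an exact test that flips the sign of a difference within each of 2 pools cannot go below p = 0.5, so each comparison below is a description. The pools followed each other with a Pearson correlation of 0.973 across the 46 bins of the locus and 0.987 across the 4381 bins of chromosome 18, which are not independent of each other. The pools had the same sign in 93.5% of the bins of the locus, and their median absolute difference there was 0.458. No RNA was measured in these mice, so nothing below speaks of expression. All 8 adipocyte marker genes looked up had an index above 0 in both pools, where 75.6% of all protein-coding gene starts did. The values were 7.77 and 8.14 at *Lipe*, the gene of hormone-sensitive lipase, and 2.71 and 2.74 at *Adipoq*, which encodes adiponectin.

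Clustered protocadherins are cadherin-like adhesion molecules that are best known from the nervous system, where they let the branches of a neuron tell self from non-self. A neuron switches on a small, largely random choice of them, each from its own promoter. In the alpha and gamma clusters each variable first exon carries its own promoter and is spliced to a set of constant exons shared by the cluster, whereas a beta gene is a single exon. Promoter choice depends on the architectural protein CTCF and on cohesin, which loop distant enhancers to the chosen promoter, and most of the promoters share a conserved element with the core letters CGCT. The last genes of the alpha and gamma clusters, called C types, are closer in sequence to each other than to their neighbours and are used more regularly.

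Most of the clustered protocadherins lay in the B compartment of mouse fat. At the gene starts the median index of the 59 members was -2.56 in pool 1 and -2.75 in pool 2, with a mean of -2.62 ± 0.13 (SD, n = 2 pools). Over all 20621 protein-coding gene starts the median was 3.47 and 3.06, and the members' median sat at the 12.4th percentile of these starts. The index was below 0 in both pools at 41 of the 59 members (69.5%), where 21.7% of all protein-coding gene starts were. On chromosome 18, whose starts include the members, that share was 24.5%. The index was above 0 in both pools at 7 members, against 75.6% of all starts and 69.6% of those on chromosome 18, and the other 11 members had a different sign in each pool. The 59 starts fall into only 27 bins, so genes in the same bin share 1 value, and of these bins 20 were below 0 in both pools, 4 were above and 3 were mixed. Among all autosomal bins with at least 1 protein-coding gene start, 23.7% were below 0 in both pools.

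**Figure D1:**
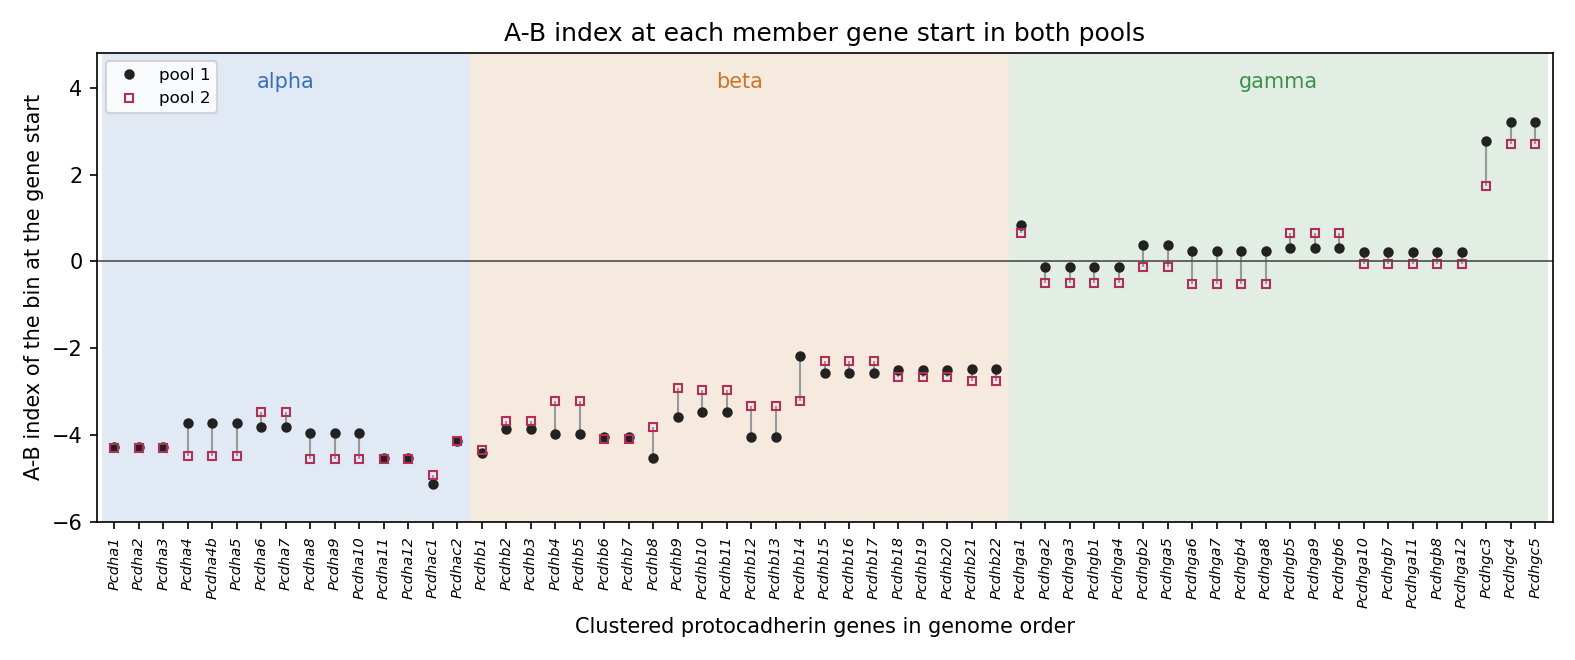
The A-B index (no unit, vertical axis) of the 20-kb bin at the start of each of the 59 genes, in genome order, with a filled circle for pool 1, an open square for pool 2 and a line joining them. All alpha and beta genes sit below 0 in both pools, most gamma genes lie close to 0, and *Pcdhgc3*, *Pcdhgc4* and *Pcdhgc5* stand between 1.73 and 3.20.

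The alpha genes had the lowest values. Their median was -3.95 in pool 1 and -4.49 in pool 2 (-4.25 ± 0.38, SD, n = 2 pools), and all 15 were below 0 in both pools. Each of them ranked between the 3.62nd and the 9.04th percentile of all protein-coding gene starts. *Pcdha1*, the first gene of the cluster, had -4.29 and -4.30, and *Pcdha12*, the last before the C types, had -4.53 and -4.56. *Pcdhac1*, an alpha C type, was the lowest of all 59 members, at -5.13 and -4.93. *Pcdhac2*, the C type that serotonergic neurons use to space their axons, had -4.13 and -4.14, inside the range of the other alpha genes. The highest mean of both pools in the cluster was shared by *Pcdha6* and *Pcdha7*, at -3.81 and -3.47. By that mean the highest and lowest alpha genes stood apart by more than the difference between pools at either. All alpha genes but the readthrough *Pcdha4b* run on to a common 3′ end at position 37320716, and the bin there was still at -3.30 and -3.51. *Pcdha4b* is annotated to end at 37973253, within the gamma cluster, in a bin at 3.28 and 2.44.

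The beta genes were also in B throughout, with values that were higher toward the distal end of the cluster. Their median was -3.53 and -3.09 (-3.23 ± 0.31, SD, n = 2 pools), all 22 were below 0 in both pools, and they ranked between the 6.42nd and the 13.0th percentile. *Pcdhb1*, the first gene and the lowest of the cluster by the mean of both pools, had -4.43 and -4.35. *Pcdhb22*, the last gene, had -2.49 and -2.75, and the highest mean was that of *Pcdhb15*, *Pcdhb16* and *Pcdhb17*, which share a bin at -2.56 and -2.29. From *Pcdhb1* to *Pcdhb8* the index lay between -4.53 and -3.21 in either pool, and from *Pcdhb14* to *Pcdhb22* between -3.23 and -2.17. These sets touched at their edges through *Pcdhb14*, which had the largest difference between pools of any member, -2.17 against -3.23.

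The gamma genes did not fall on 1 side. Their median was 0.24 in pool 1 and -0.05 in pool 2 (0.08 ± 0.20, SD, n = 2 pools), so its sign depended on the pool. Pool 1 alone put 18 members above 0 and pool 2 alone 7, all of them gamma genes. The share of all starts above 0 in 1 pool alone is not given here. After centring on the median of chromosome 18 in each pool, all 22 gamma genes were above 0 in both pools, with a median of 0.60. Centring raised every start on the chromosome alike, and the share of all starts above 0 after it is not given here. The gamma genes come as A, B and C types, and the A and B types, which alternate along the cluster, lay close to the line between the compartments. Of these 19 genes 4 were above 0 in both pools, 4 were below and 11 changed sign between pools, over 6 bins. *Pcdhga1*, the first gamma gene, had 0.84 and 0.66, above 0 in both pools. The lowest gamma mean of both pools belonged to *Pcdhga2*, *Pcdhga3*, *Pcdhgb1* and *Pcdhga4*, which share -0.12 and -0.50. The group of *Pcdhga6*, *Pcdhga7*, *Pcdhgb4* and *Pcdhga8* had 0.24 and -0.53, and that of *Pcdhgb5*, *Pcdhga9* and *Pcdhgb6* had 0.30 and 0.65. The drop from the bin of *Pcdhga1* to the next was larger in both pools than the difference between pools at either bin. Past that drop, neighbouring values differed by about as much as the pools did, so the order of neighbours there cannot be read.

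The gamma C types were in the A compartment. *Pcdhgc3*, which is also transcribed outside neurons, had 2.77 and 1.73, and *Pcdhgc4*, needed for the survival of many neurons, shared 3.20 and 2.70 with *Pcdhgc5*. These were the highest of all members, and the mean at *Pcdhgc4* and *Pcdhgc5* reached the 46.0th percentile of all protein-coding gene starts. The common 3′ end of the gamma transcripts, at position 37975014, had 3.28 and 2.44. The gamma genes therefore start near or above 0 and all run into A, whereas the alpha genes other than *Pcdha4b* start and end in B. When a gene was represented by all bins of its body instead of its start, all 22 gamma genes were above 0 in both pools and their median became 1.53. All gamma bodies end in the same A bin, so these values overlap and were raised together. The share of all genes above 0 by gene body is not given here. The C types of the alpha and gamma clusters, alike in sequence, were thus on different sides of 0, by more than the difference between pools at any of them.

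Along the locus the index formed a basin with unequal sides. Over its 46 bins, from 37060001 to 37980000, the mean was -2.48 and -2.53 (-2.50 ± 0.036, SD, n = 2 pools), with 36 bins below 0 in both pools, 7 above and 3 mixed. Among all autosomal bins with sequence, 52% were below 0 in both pools, and the mean over chromosome 18 was -0.88 and -0.90. The 500 kb upstream of the locus had 2.99 and 2.54, and the 500 kb downstream had 3.48 and 3.13. The difference between the locus and its flanks was -5.71 in pool 1 and -5.36 in pool 2 (-5.54 ± 0.25, SD, n = 2 pools), much larger than the spread between pools. With flanks of only 200 kb, which reach little beyond the upstream slope, the difference was -4.48.

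Cluster by cluster, the floor of the basin was under the alpha genes. From the first to the last alpha gene start the mean over 11 bins was -4.41 and -4.19, and over the 14 bins of the beta cluster it was -3.50 and -3.41. The 2 bins between the end of the alpha genes and the first beta gene had -3.61 and -2.99. The gap between the beta and gamma clusters rose from B to A over 6 bins, with a mean of -1.79 and -2.16. The 6 bins of the gamma A and B types had 0.31 and 0.02, and the 3 bins from the C types to the end of the locus 3.08 and 2.29. In both pools the order from low to high was alpha, beta, the gap after it, gamma A and B types and gamma C types.

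**Figure D2:**
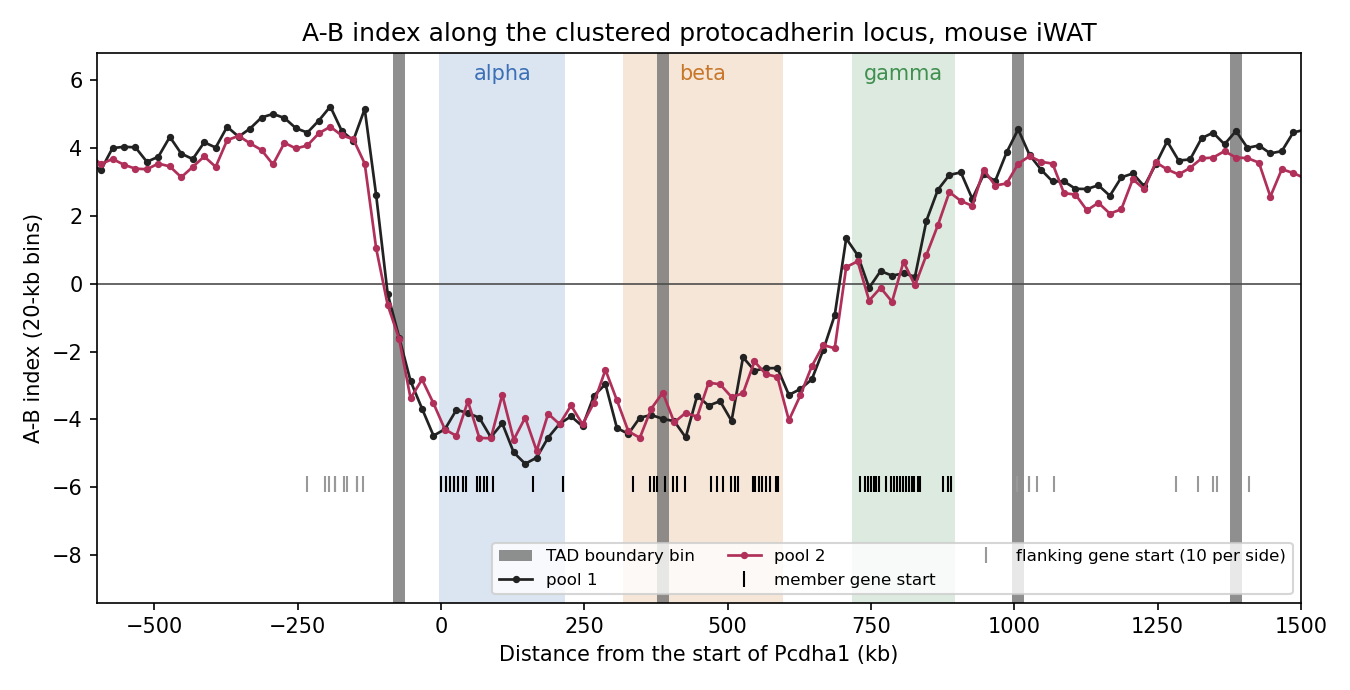
The A-B index of each 20-kb bin (vertical axis, no unit) in pool 1 and pool 2 against the distance of the bin's centre from the start of *Pcdha1* (kb), with shaded spans from the first to the last gene start of each cluster, grey bars for the bins between TADs, and ticks for the starts of the members and of the 10 nearest genes on each side. The index drops from above 3 to below 0 just upstream of the alpha genes, stays below -2 through the beta genes, hovers near 0 over the first gamma genes and regains 2 to 3 at the gamma C types.

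The basin was part of an unbroken run of B bins that began before the first protocadherin and ended between the beta and gamma clusters. Counting bins below 0 in both pools, the run went from 36960001 to 37760000 and was 800 kb long, with a mean of -3.53 and -3.41 (-3.47 ± 0.081, SD, n = 2 pools). Its 40 bins hold 39 protein-coding gene starts. Of these 37 are members, that is, every alpha and beta gene, and the other 2 are the readthrough genes *Gm38666* and *Gm37388*, which start among the alpha genes and share -3.81 and -3.47 with *Pcdha6*. On its upstream side lay an A run of 3720 kb, and after a mixed stretch over the gamma A and B types another A run of 2480 kb began at 37900001. Of 291 B runs on the autosomes with a length of 500 to 1200 kb, 49 had a lower mean, so the depth of this run was not extreme. Its gene content was uncommon, since the median run of that length held 2 gene starts and only 4 runs, this one among them, held at least 39.

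The upstream side was an abrupt edge. The 5 bins that end 120 kb before the alpha genes had a mean of 4.78 and 4.25, and the 5 bins at the first alpha genes -4.06 and -4.27. This is a step of -8.84 in pool 1 and -8.52 in pool 2, and of 122848 places on the autosomes compared in the same way 0.0619% had a step of larger absolute size. The side toward the gamma C types was more gradual, from -2.42 and -2.69 to 2.26 and 1.53. That step of 4.68 and 4.23 was exceeded at 3.30% of places.

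The neighbouring genes outside the clusters were in A on both sides. All 10 nearest upstream genes were above 0 in both pools, with a median of 4.66 and 4.37, and so were all 10 downstream genes, with 3.90 and 3.70. Their starts fell into only 6 bins upstream and 8 downstream, inside the A runs on either side. Of all protein-coding starts 75.6% were above 0 in both pools, and of those on chromosome 18 69.6%. The upstream genes were *E230025N22Rik*, *Cd14*, *Tmco6*, *Ndufa2*, *Ik*, *Wdr55*, *Dnd1*, *Hars2*, *Hars1* and *Zmat2*. *Zmat2*, a spliceosome component and the nearest of them, starts 136 kb before *Pcdha1* and had 5.15 and 3.54. *Hars1* and *Hars2*, the cytosolic and mitochondrial histidyl-tRNA synthetases that start side by side in opposite directions, shared 4.22 and 4.26. *Cd14*, a receptor for bacterial lipopolysaccharide, had 4.81 and 4.43.

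Downstream followed *Diaph1*, *Hdac3*, *Rell2*, *Fchsd1*, *Arap3*, *Pcdh1*, *Dele1*, *Rnf14*, *Pcdh12* and *Gnpda1*. *Diaph1*, a formin that builds actin filaments, had 4.55 and 3.53, and *Hdac3*, a histone deacetylase, had 3.79 and 3.76. A pair of single protocadherins that belong to no cluster lie in this stretch. *Pcdh1* had 3.63 and 3.22, and *Pcdh12*, a protocadherin of vascular endothelium, had 4.45 and 3.72. These relatives of the clustered genes were thus on the A side, as were the genes around them.

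Of the genes inside the locus that are no protocadherins, *Slc25a2* and *Taf7* lay just past the end of the B run. The readthrough genes *Gm38666* and *Gm37388*, described above, lay within it. *Slc25a2*, a mitochondrial ornithine carrier, and *Taf7*, a subunit of the general transcription factor TFIID, are both on the minus strand between the beta and gamma clusters. They share a bin at 1.33 and 0.49, the first above 0 in both pools after the B run. The beta gene before it, *Pcdhb22*, had -2.49 and -2.75, and the gamma gene after it, *Pcdhga1*, had 0.84 and 0.66.

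Topologically associating domains (TADs) are stretches whose DNA contacts itself more than its surroundings. They were called on both pools merged, so their ends have no replicate. A pair of the 2979 mouse TADs overlapped the locus. The first, from 37000001 to 37440000, held the starts of all 15 alpha genes and of the first 3 beta genes. All of its 22 bins were below 0 in both pools, with a mean of -4.11 and -3.89. The second, from 37460001 to 38060000, held 17 beta genes and all 22 gamma genes. The remaining beta genes, *Pcdhb4* and *Pcdhb5*, start in the bin between the TADs, at -3.98 and -3.21, with *Pcdhb3* before it at -3.87 and -3.68 and *Pcdhb6* after it at -4.05 and -4.09.

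The first of these TADs was uniform and the second was not. In the second, 16 bins were below 0 in both pools, 11 above and 3 mixed, and the mean was -0.60 and -0.85. At least 5 bins on each side of 0 were found in 15.4% of all TADs. The bins of this TAD spanned 7.58 from the lowest to the highest mean of both pools, which put it at the 97.2nd percentile of TADs. The TAD ends and the compartment changes of the locus thus coincided in 1 place and not in another. At the upstream TAD end the 5 bins before it had 3.24 and 2.52 and the 5 bins after it -3.81 and -3.70, a step of 6.63 in absolute size that only 8 of 2930 such places exceeded. At the TAD end inside the beta cluster the values were -3.89 and -3.71 before and -3.79 and -3.54 after, a step of 0.14 where the median over all places was 1.32. At the TAD end beyond the gamma cluster the step was 0.23.

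The end of the B run inside the locus was far from any TAD end. It lay at 37760000, 300 kb from the nearest, and 85.9% of 1291 changes between A and B runs on the autosomes were nearer to a TAD end. Past this point the index did not stay in A. The bin from 37800001 was again in B in both pools, and the long A run began only at 37900001. That start is closer to the TAD end at 38060000, and its distance was not ranked, so the rank holds for the end of the B run only. The upstream change of sign lay 20 kb from a TAD end, where 36.3% of all such changes were at most 20 kb away. The members themselves were at a median of 147 kb from a TAD end, close to the 142 kb of all protein-coding gene starts. By cluster this distance was 107 kb for the alpha genes, 102 kb for the beta genes and 199 kb for the gamma genes.

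Set beside other genes of adhesion, the alpha and beta clusters resembled many cadherin genes, which were also mostly in B. Of 10 single protocadherins outside the clusters 7 were below 0 in both pools and 3 above, with a median of -2.54 for the mean of both pools. The lowest were *Pcdh15*, needed in the hair cells of the inner ear, at -5.07 and -5.12, and *Pcdh9*, at -4.49 and -4.62. *Pcdh12* and *Pcdh1*, the neighbours described above, were the highest. Of 20 classical and related cadherins 14 were below 0 in both pools and 6 above, with a median of -3.57, from -6.42 and -6.26 at *Cdh8* to 5.82 and 5.06 at *Cdh22*. The large atypical cadherins of the Fat, Dachsous and Celsr families differed from these lists, with 7 of 9 above 0 in both pools, 1 below and 1 mixed. Their share above 0, 77.8%, was close to the 75.6% of all protein-coding starts. *Celsr3*, which guides axons, had 4.36 and 5.05, and *Fat3* had -3.51 and -3.54. The share below 0 in each of these lists is to be read against the 21.7% of all protein-coding starts.

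The genes known to act on the protocadherin clusters were all in A. The 10 looked up were *Ctcf*, cohesin and its partners (*Rad21*, *Smc3*, *Stag1*, *Wapl*, *Nipbl*) and the chromatin regulators *Smchd1*, *Dnmt3b*, *Setdb1* and *Wiz*, and their median was 3.40. *Ctcf* had 5.40 in both pools, and *Dnmt3b*, a DNA methyltransferase, had 5.55 and 5.14. *Rad21*, a cohesin subunit, had 1.81 and 1.49, the lowest of the list, followed by *Stag1* at 1.98 and 1.58. Over all protein-coding starts 75.6% were above 0 in both pools.

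Other families that lie in clusters took either side. All 39 *Hox* genes, the clustered regulators of body axis, were above 0 in both pools, with a median of 3.31 over 22 bins. Of 1180 olfactory receptor genes 1070 (90.7%) were below 0 in both pools, with a median of -4.63, and of 350 vomeronasal receptor genes 274 (78.3%) were, with a median of -3.47. The alpha median, -4.25, lay between the medians of these receptor families, and the beta median, -3.23, was above both. The median of the gamma A and B types, 0.08, lay between those of the receptors and that of the *Hox* genes. Of 6 neuron marker genes 4 were below 0 in both pools and 2 above, and of 4 skeletal muscle marker genes 2 were below and 2 above. The counts of all these lists are to be read against all protein-coding starts, of which 75.6% were above 0 in both pools and 21.7% below.

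**Figure D3:**
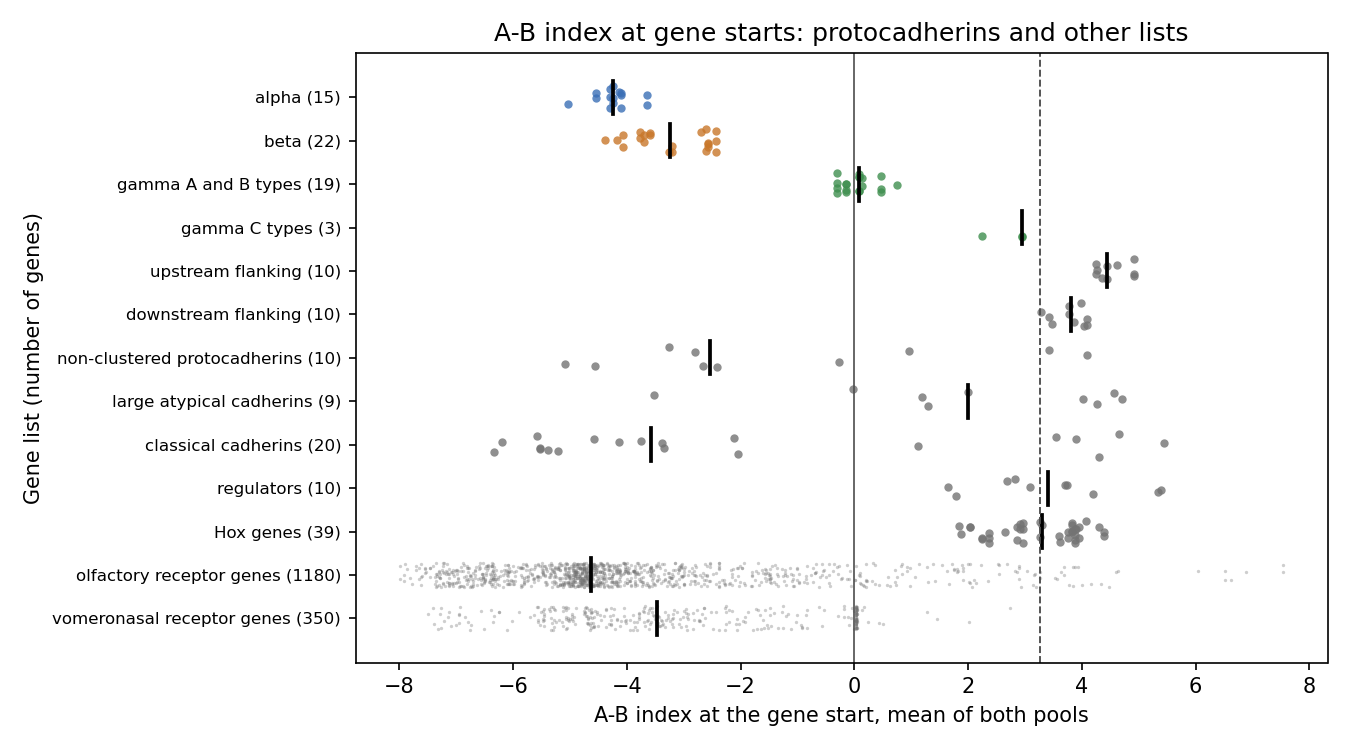
The A-B index at the gene start, as the mean of both pools (no unit, horizontal axis), with 1 point per gene for each list (number of genes in parentheses), a bar at the list's median and a dashed line at the median of all protein-coding gene starts, 3.26. The alpha and beta genes lie to the left of 0 with most olfactory and vomeronasal receptors, and both sets of flanking genes lie to the right of the dashed line.

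Bins with several gene starts were in B less often than bins with at least 1, of which 23.7% were below 0 in both pools. A is by construction the gene-richer side of each chromosome, and no other tissue was compared. Among autosomal bins with at least 2 protein-coding gene starts 13.5% were below 0 in both pools, and with at least 3 it was 6.51%. In fixed windows of 500 kb, the window from 37000001 to 37500000 held 25 protein-coding gene starts and had a mean of -4.12 and -3.87. Of the 4798 autosomal windows 71, this one among them, held at least as many starts, with a median index of 3.61. Of the 71, 18 (25.4%) were below 0 in both pools. The share of all 4798 windows below 0 is not given here, and of all autosomal bins with sequence 52% were below 0 in both pools. The next window, from 37500001 to 38000000, held 38 starts and had -0.78 and -1.08. Of the 6 windows with at least as many, 2 (33.3%), this one among them, were below 0 in both pools. These 18 gene-rich windows were led by families of tandem copies, namely olfactory receptors in 13, keratin-associated proteins in 2, late cornified envelope proteins in 1 and the clustered protocadherins in 2. Across 88 windows of 1 Mb on chromosome 18, the locus among them, the number of gene starts and the mean index were correlated with a Pearson's *r* of 0.352.

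**Figure D4:**
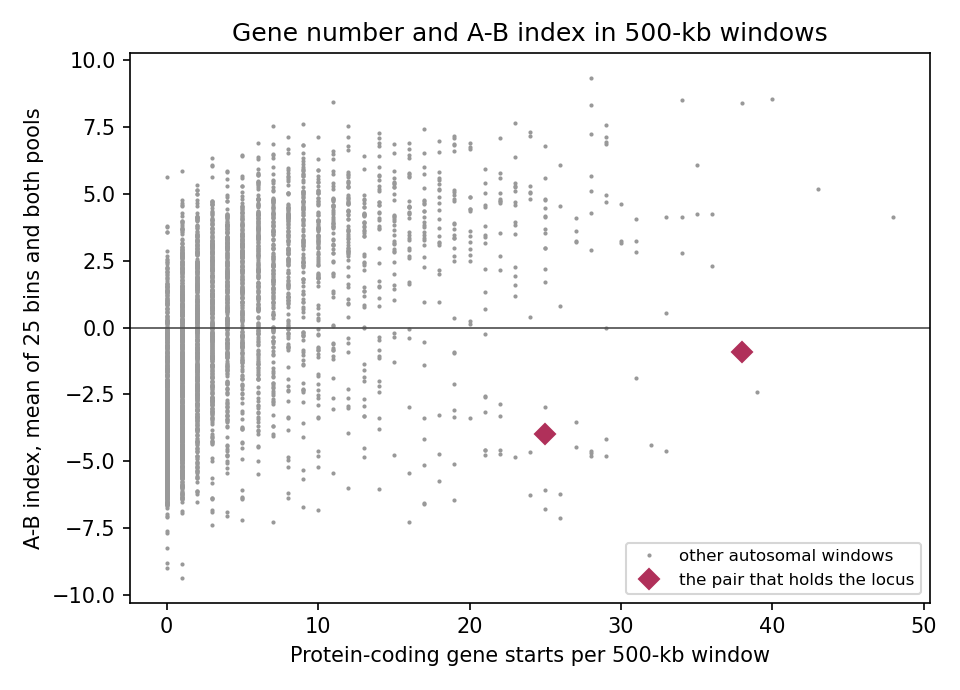
The mean A-B index of both pools over 25 bins (no unit, vertical axis) against the number of protein-coding gene starts in each autosomal window of 500 kb, with diamonds for the pair of windows that hold the protocadherin locus. Most windows with 25 or more gene starts lie above 0, and the diamonds, at 25 and 38 starts, lie below it.

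GC content moved with the index, and its part in the compartment of the locus was not tested. The B run had 40.4% GC, with bins from 37.7% to 42.8%, and the autosomes 41.9%. Of 11391 autosomal bins whose GC lay within 0.5 percentage points of the run's, 66.7% were below 0 in both pools, with a median index of -1.58, and 25.9% were lower than the run's mean. The alpha stretch had 40.2% GC, the beta stretch 40.4% and the gamma stretch 44.7%, so the clusters nearer to A were also richer in GC. Across the 46 bins of the locus Pearson's *r* between GC content and the mean index was 0.739, and across chromosome 18 it was 0.682 over 4381 bins, which are neighbours in sequence. The run held 55.7 MboI sites (GATC) per bin and the autosomes 49.9, so the bins of the run offered more places to cut.

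**Figure D5:**
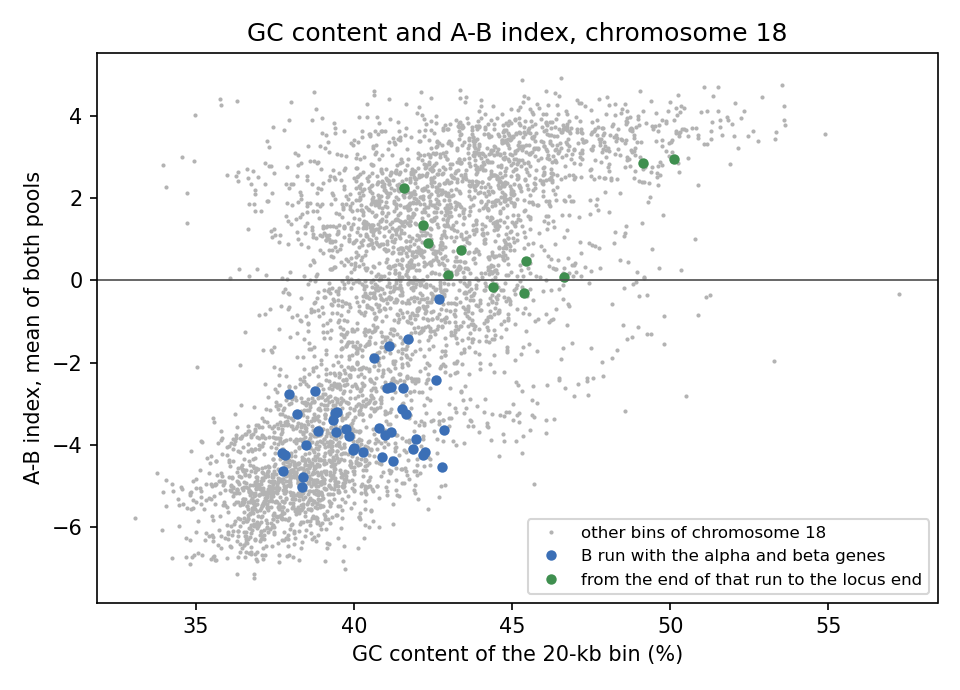
The mean A-B index of both pools (no unit, vertical axis) against the GC content of each 20-kb bin of chromosome 18 (percent, horizontal axis), with blue points for the B run with the alpha and beta genes and green points from its end to the end of the locus. The blue points span 37.7% to 42.8% GC and all lie below 0, and the green points reach higher GC and an index near or above 0.

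The members also shared features of sequence and structure that did not enter their choice or the index. All 22 beta genes had a single exon in their canonical transcript, as had 1190 of all 20621 protein-coding genes, and all alpha and gamma genes had 4. First exons were long, since a variable exon encodes the whole extracellular part of the protein, with a median of 2481 bp in the alpha, 3714 bp in the beta and 2609.5 bp in the gamma genes against 276 bp over all protein-coding genes. The letters CGCT were searched in the 300 bases from 250 before to 50 after each gene start. On the strand of the gene they occurred at 52 of 59 members (88.1%) and at 46.5% of all protein-coding starts. On the opposite strand, where the letters read AGCG along the gene, they occurred at 27 members (45.8%) and at 46.7% of all starts. On either strand it was 56 members (94.9%) against 63.2%. By cluster the gene strand held the letters at 13 of 15 alpha, 19 of 22 beta and 20 of 22 gamma genes, and at 2 of the 3 gamma C types. The opposite strand held them at 6 alpha, 6 beta and 15 gamma genes. A match of 4 letters is a description of the window and not a bound site. The same windows had a median of 39.7% GC and a ratio of observed to expected CpG of 0.52, where all protein-coding starts had 52.7% and 0.44.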

How the data were processed

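Hi-C of mouse iWAT was analysed from 2 pools, assigned to 1 group by their labels. Reads had been aligned with BWA and filtered in Juicer, which dropped duplicates and pairs of low mapping quality, such as reads that fit several near-identical genes equally. Per bin of 20 kb and pool, the authors deposited 1 score, the A-B index: the median observed/expected contact of a bin with coarse A regions minus that with coarse B regions of its chromosome, by the methods. The values may have been rescaled in a way the methods do not describe. Coarse regions came from prcomp in R with the sign set by gene density, so A is by construction the gene-richer side of each chromosome. The deposited TAD positions had been called by insulation score on merged pools. The depth per bin is unknown. Contact matrices and the sheep samples were not used here.

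Gene starts, GC content and MboI sites were taken from GRCm39 and GENCODE M39. The 19 autosomes had as many bins in the files as in GRCm39 (123133 in all), and bins with under 10000 known bases were left out of counts over bins, leaving 119868. The 122848 places at which steps were compared were not filtered in this way. A gene took the value of the bin with its start, and A or B was called where both pools had the same sign. Values were computed in Python 3.11.15 with numpy 2.4.6 and pandas 2.3.3, by scripts tested on simulated data, and plotted with matplotlib 3.10.9.

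No test was made, since genes and bins are not replicates and there were only 2 pools. Members and lists were chosen with earlier results of these data known. Genes named were the first and last of each cluster, the C types, those with the highest and lowest mean of each cluster, those beside a TAD end or a change of sign, the 10 nearest genes on each side, genes inside the locus, and up to 4 genes per list. Members that share a bin with these, and *Pcdhb8* and *Pcdhb14*, were added after their values were seen. Alternatives were the gene body or 5 bins for a gene, centring by chromosome, each bin counted once, other flanks, a reference of chromosome 18, other TAD overlaps and leaving out a pool.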

Additional observations from a re-analysis of the deposited data

How the results depend on the processing

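With 1 pool left out the median at member gene starts was -2.75 to -2.56, that of alpha genes -4.49 to -3.95, of beta genes -3.53 to -3.09 and of gamma genes -0.050 to 0.24, so the gamma median changed sign with the pool. Members above 0 then numbered 7 to 18, without a share of all starts in 1 pool to set beside them. The mean over the locus was -2.53 to -2.48, the difference from the flanks -5.71 to -5.36 and the percentile 11.8 to 12.8. Centring each chromosome on its median moved the medians to -2.10 for all members, -3.73 for alpha, -2.72 for beta and 0.60 for gamma. It moved the mean over the locus to -1.98 and the members above 0 from 7 to 22, without a share of all starts to set beside them. A mean over 5 bins gave -2.90 for all members, 0.32 for gamma and 13 members above 0. A mean over the gene body, where all gamma bodies share their last bin, gave 1.53 for gamma and 22 members above 0. For 5 bins and for the gene body the share of all starts above 0 is not given here. With each bin counted once the median was -3.26 for all members and 0.30 for gamma, and 4 bins were above 0. The bins that hold a member start had a mean of -2.38, flanks of 200 kb gave a difference of -4.48, and the percentile among starts of chromosome 18 was 14.3. By gene body the alpha median was -4.19 and the beta median -3.22, and flanks of 1000 kb gave a difference of -5.69. Limiting members to protein-coding genes changed nothing, since all are. The number of TADs stayed at 2, and the median distance to a TAD end was 157 kb when ends were set to the middle of the gap between TADs. No paired analysis was possible because there was no second mouse group whose pools could be matched to these. The difference between locus and flanks is itself taken within each pool. The unknown depth per bin and n = 2 limit what can be said of the gamma A and B types, of which 11 of 19 changed sign between pools.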
